A study of Mus musculus with 4 samples.

Results

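Mesothelial marker genes, 7 transcripts that mark the thin epithelium lining the body cavities and the organs in them, were followed in white adipose tissue of mice on a fat-rich diet (HFD) and of mice on a low fat chow (LFD). They were chosen by name, with earlier results of these data known, as Msln, Muc16, Upk3b, Gpm6a, Lrrn4, Wt1 and Bnc1. The arrays carried 8 non-control probes under these names, 2 for Gpm6a and 1 for each other gene, among 41174 probes in all. All 7 genes passed the filter on dim probes, as did 17735 genes of the whole array, since every marker was well above background on both LFD arrays.

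The animals were females of C57BL/6, an inbred strain that readily becomes obese. From 8 weeks of age they received High fat diet 32 (HFD) or the chow CE2 (LFD), both from CLEA Japan, for 18 weeks. The labels name no allele or drug. RNA of each diet was measured on 2 one-colour arrays, and each sample was tissue mixed from 3 mice, so that differences between single animals were not seen. The sources used here do not say which fat depot was taken, nor whether the 2 samples of a diet were separate pools, so the p-values reflect the spread between these arrays alone, and that spread may be technical. The labelled tissue showed its defining transcripts, with Adipoq, which encodes adiponectin, at log2 7.38 to 7.80 above the 75th percentile of each array.

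Mesothelial cells form a single flat layer joined by junctions, make a slippery surface glycoprotein coat and cover visceral fat but not fat under the skin. They express keratins like other simple epithelia together with transcription factors of mesodermal origin such as Wt1, which is also found in progenitor cells of visceral fat. Mesothelin and mucin 16, the products of Msln and Muc16, bind each other at the cell surface and are known as serum antigens of mesothelial and ovarian tumours.

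The probes are 60 bases long, and the first 30 bases of each are given, as listed in the files, because every value of a gene comes from the transcript that its probe matches. The 2 Gpm6a probes are set under each other because they read different places of the transcript, starting at base 2644 of NM_153581 and at base 946 of S65735.
Msln: tgggtaccaggggtcattgccaaagtttga
Muc16: cgtcatcgtctagcttattatttgtctcac
Upk3b: tcaccaagtgtactggttagagagtgtaaa
Gpm6a, probe A_52_P566681: tcgtgtttgttttaaccttgactctctttt
Gpm6a, probe A_51_P479304: attggtgtttcattaagggccatccaacca
Lrrn4: ttatcaaagctgaacctgaatatgaatcac
Wt1: cactggtaagactgttcttaagtaacttaa
Bnc1: tgcagctttaaaagaagtggattttgtatt

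In the coordinates of the files, which are those of build mm9, the Msln probe lay at chr17:25885569-25885628 and the Muc16 probe at chr9:18299956-18300015, both on the minus strand. The Upk3b probe lay at chr5:136520522-136520581 and the Wt1 probe at chr2:105013428-105013487 on the plus strand. The Gpm6a probes lay at chr8:56145539-56145598 and chr8:56144315-56144375 on the plus strand. The Lrrn4 probe lay at chr2:132694490-132694549 and the Bnc1 probe at chr7:89111978-89112037, both on the minus strand. No gene annotation of mm9 was used here, so the probes are not assigned to exons or untranslated regions.

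All marker genes had lower values on both HFD arrays than on either LFD array, and 6 of 7 fell past an adjusted p of 0.05. The 6 falls ran from 1.98-fold for Msln to 3.91-fold for Lrrn4, and Bnc1, the dimmest, did not pass. Over all genes tested, 5.6% were called lower in HFD and 5.73% higher, and 32.7% had both HFD arrays below both LFD arrays. By probe, 7 of 8 passed, all lower, where 5.27% of all tested probes were called lower, 5.43% higher, and 32.6% had both HFD values below both LFD values. The estimated difference was over 2-fold lower for 6 of the 7 genes, against 3.87% of all genes. The median log2 change was -1.72 over the markers and 0.02 over all genes. Each value is relative to the signal level of its own array, so a lower one means a smaller share of the RNA measured. In bulk tissue, fewer mesothelial cells, a smaller share of them in the sample and less of these transcripts per cell cannot be told apart. Which of these applied was not tested.

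**Figure D1:**
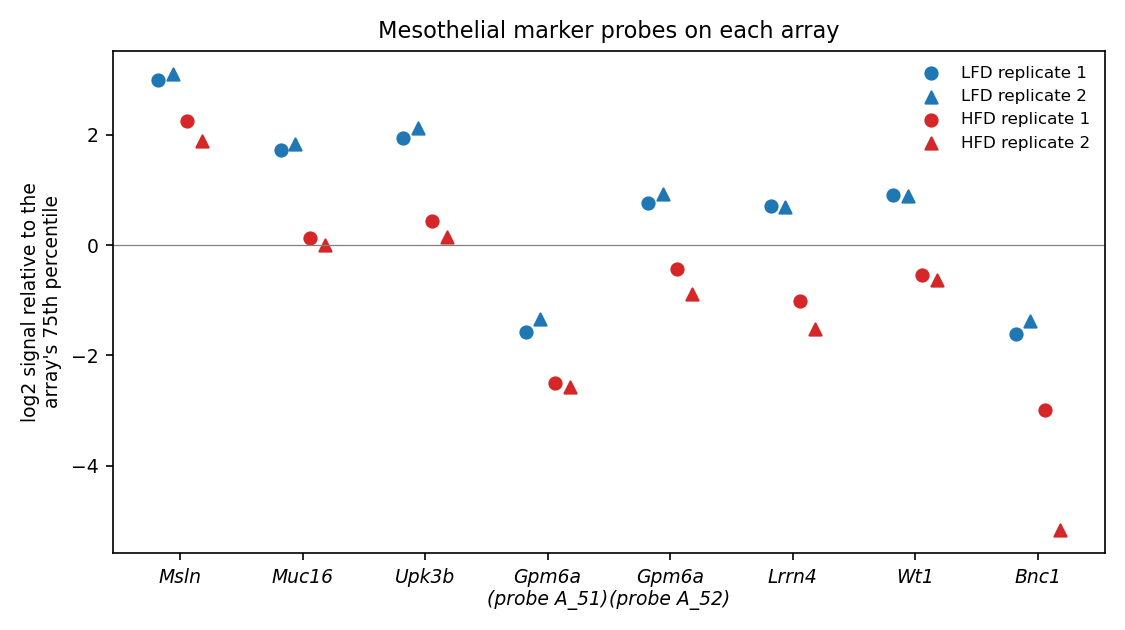
Log2 signal of each marker probe relative to the 75th percentile of its array (vertical axis) on the 4 arrays, LFD in blue and HFD in red, circles for replicate 1 and triangles for replicate 2. For each of the 8 probes both HFD points lie below both LFD points; heights of different probes are not comparable.

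Msln, which encodes the membrane protein mesothelin, had processed signals, in linear brightness units, of 6627 and 7393 in LFD and of 4063 and 2909.97 in HFD. Relative to the 75th percentile of each array these were log2 levels of 3.00 and 3.11 in LFD and 2.25 and 1.90 in HFD. Both HFD values were below both LFD values, with a gap of 0.75 between the nearest ones. Msln fell 1.98-fold (95% confidence interval 1.48 to 2.65, adjusted p = 0.0374, limma, Benjamini-Hochberg adjusted over the 26058 probes tested).

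Muc16, which encodes a very large membrane mucin and binding partner of mesothelin, had log2 levels of 1.74 and 1.84 in LFD and 0.13 and -0.0040 in HFD. The nearest LFD and HFD values were 1.60 apart, while replicate 2 minus replicate 1 was 0.10 in LFD and -0.14 in HFD. Its fall of 3.30-fold (interval 2.70 to 4.04) had the smallest p of the marker genes (adjusted p = 0.0137, limma). Upk3b, a member of the uroplakin family whose expression is typical of mesothelium, stood at 1.95 and 2.13 in LFD and at 0.44 and 0.14 in HFD. It fell 3.36-fold (interval 2.54 to 4.44, adjusted p = 0.0169, limma).

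Gpm6a, a membrane glycoprotein best known from neurons, was the only marker with more than 1 probe. The brighter probe read 0.76 and 0.94 in LFD and -0.43 and -0.89 in HFD, a fall of 2.85-fold (interval 1.98 to 4.09, adjusted p = 0.0270, limma). The dimmer probe read -1.58 and -1.34 in LFD and -2.51 and -2.58 in HFD, a fall of 2.12-fold (interval 1.67 to 2.68, adjusted p = 0.0241, limma). The 2 probes changed in the same direction, and their intervals overlapped.

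Lrrn4, a membrane protein with leucine-rich repeats, had log2 levels of 0.71 and 0.68 in LFD and -1.02 and -1.52 in HFD. Replicate 2 minus replicate 1 was -0.03 in LFD and -0.51 in HFD, and the diets did not overlap. The fall of 3.91-fold (interval 2.70 to 5.66, adjusted p = 0.0205, limma) was larger in size than those of the other 5 called markers. By brightest probes its interval overlapped all of theirs except that of Msln. It did not overlap that of the dimmer Gpm6a probe (1.67 to 2.68).

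The transcription factors among the markers were measured with very different precision. Wt1, a zinc finger factor needed for the formation of the mesothelium, kidney and gonads, read 0.91 and 0.89 in LFD and -0.54 and -0.63 in HFD. It fell 2.80-fold (interval 2.34 to 3.34, adjusted p = 0.0140, limma). Bnc1, a zinc finger protein of mesothelium, basal keratinocytes and germ cells, had processed signals of 272.6 and 328.4 in LFD and of 108.3 and 21.6 in HFD. On the log2 scale these were -1.61, -1.38, -2.98 and -5.18, and the last, on HFD replicate 2, was not well above background.

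The mean Bnc1 difference was 6.01-fold, with an interval of 1.43 to 25.3 (adjusted p = 0.102, limma). Both HFD values lay below both LFD values, but replicate 2 minus replicate 1 of HFD was -2.19 on the log2 scale. With another background correction, normexp with an offset of 50, the Bnc1 difference was 2.14-fold and passed (adjusted p = 0.00875, limma, and 0.00875 to 0.238 over all alternatives).

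**Figure D2:**
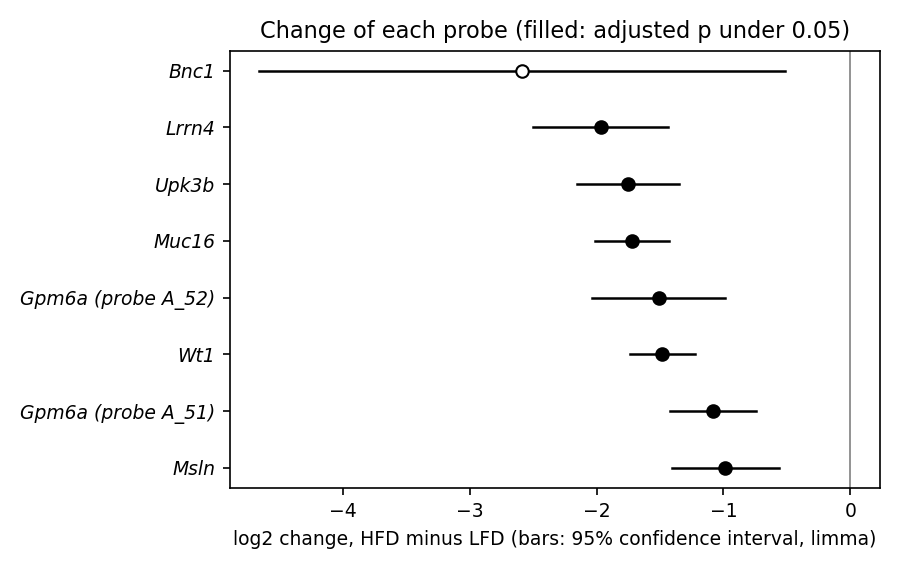
Log2 change of each marker probe, HFD minus LFD (horizontal axis), with its 95% confidence interval from limma; filled points have an adjusted p under 0.05. The 7 called probes are filled, from -0.99 for Msln to -1.97 for Lrrn4, and the open point with the widest bar is Bnc1 at -2.59.

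Wt1 allowed the error of a single spot to be seen, since its probe was printed 10 times on each array. The spots had a coefficient of variation of 3.61% to 6.15% within an array. In LFD they ranged from 1417 to 1674 on replicate 1 and from 1463 to 1671 on replicate 2. In HFD they ranged from 522 to 628 on replicate 1 and, over the 9 spots not marked as outliers, from 486 to 537 on replicate 2. The lowest of the LFD spots was thus above the highest of the HFD spots. These spots share 1 RNA sample per array and count as 1 value each in the test.

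**Figure D3:**
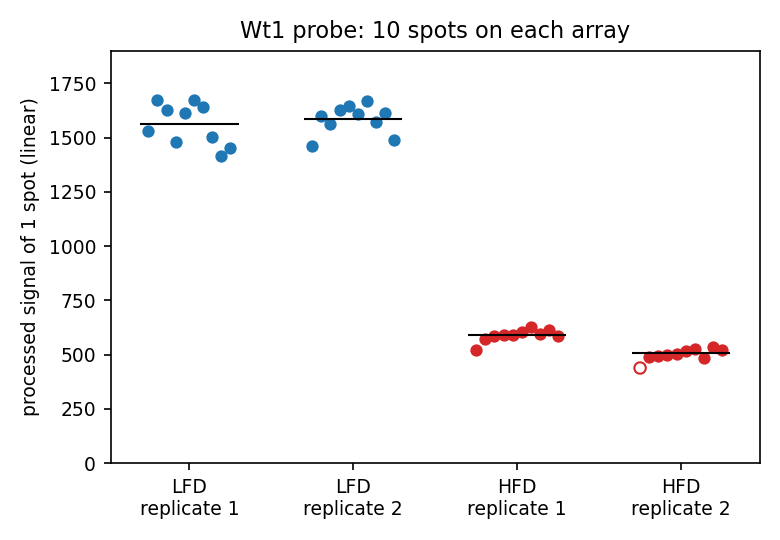
Processed signal (vertical axis, linear from 0) of each of the 10 Wt1 spots on each array, with a line at the mean of the spots used; the open circle is the spot on HFD replicate 2 that the scanner software marked as an outlier (438). All LFD spots lie at 1417 or above and all HFD spots at 628 or below.

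Msln had the smallest estimated fall, and within each array the other markers could be set against it. As Msln was picked for that, a lower mean ratio to it in HFD was fixed in advance for every other marker. The log2 ratio of Upk3b to Msln was -1.04 and -0.99 in LFD and -1.81 and -1.75 in HFD, a drop of 0.76. That of Lrrn4 to Msln was -2.29 and -2.43 in LFD and -3.26 and -3.42 in HFD. The ratio to Msln was lower on both HFD arrays than on both LFD arrays for each of the 6 other markers, by 0.50 for Wt1, 0.52 for Gpm6a and up to 1.60 for Bnc1. A single factor per array does not move these ratios, and they were not tested. With normexp the gap was narrower, with log2 changes of -1.10 for Bnc1, -1.33 for Wt1 and -1.70 for Lrrn4 beside a fall of 2-fold for Msln.

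The markers also differed between the 2 HFD arrays. All 7 were lower on HFD replicate 2 than on replicate 1, with log2 differences from -0.08 for Wt1 to -2.19 for Bnc1 and a median of -0.35. Of all genes tested, 43.7% were lower on replicate 2, and their median difference was 0.02. On the LFD arrays 5 of 7 markers were higher on replicate 2, against 59.6% of all genes, and the largest of these differences was 0.23 for Bnc1. HFD replicate 2 stood apart in technical measures. There 51.8% of probes were well above background, against 64.2% to 67.9% on the other arrays, and negative control spots averaged 109.5, against 63.5 to 97.0. The part of these measures in the lower values was not tested.

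**Figure D4:**
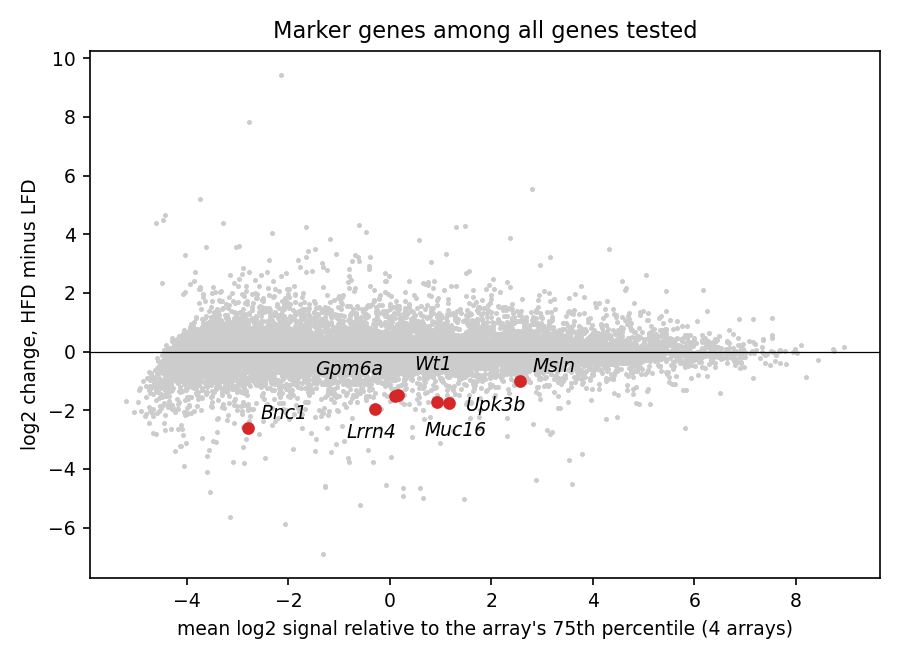
Log2 change, HFD minus LFD (vertical axis), against the mean log2 signal over the 4 arrays (horizontal axis) for 17735 genes in grey, each by its brightest tested probe, with the markers in red. The 7 markers lie between -0.99 and -2.59.

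Among all genes tested, 3.98% had a log2 change as low as that of Msln. The share was 1.62% for Wt1, 1.54% for Gpm6a, 1.16% for Muc16, 1.11% for Upk3b, 0.767% for Lrrn4 and 0.378% for Bnc1. The markers were thus in the lower tail of the array but were not its extreme. The calls depended on having all 4 arrays. Without LFD replicate 1 only Muc16, Wt1 and Upk3b passed, and without LFD replicate 2 only Muc16 and Wt1. Without HFD replicate 1 or without HFD replicate 2 none passed in limma, although all 7 had an unadjusted p under 0.05 in each case; the changes then ran from -0.81 for Msln to -3.68 for Bnc1, and the fold for Bnc1 was 12.9 without replicate 1 and 2.81 without replicate 2.

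Other genes known from mesothelium were listed with earlier results of these data known, so they give no independent support. Of 20 listed genes, 19 were tested, 11 were lower in HFD and none was higher, against 5.6% and 5.73% of all genes. Their median log2 change was -1.27. Calb2, which encodes the classical mesothelial marker calretinin, was not tested, as the best detected of its 3 probes was well above background on only 1 array of each diet. Krt5, a keratin of basal epithelia and of mesothelium, read 0.41 and 0.69 in LFD and -2.90 and -2.86 in HFD, a fall of 10.8-fold (adjusted p = 0.0101, limma), with a log2 change of -3.43 that was -2.59 with normexp. Krt18 and Krt8, the partner keratins of simple epithelia, fell 6.58-fold and 3.98-fold.

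Secreted and regulatory genes of the list fell too. Rspo1, a secreted enhancer of Wnt signalling, read 4.72 and 4.78 in LFD and 3.55 and 3.40 in HFD, a fall of 2.42-fold (adjusted p = 0.0164, limma). Gata6, a transcription factor of the mesothelium that cavity macrophages also express, fell 2.43-fold, although the dimmest of its 3 probes had a log2 change of 0.20 (adjusted p = 0.445, limma). Nkain4, which encodes a membrane protein that interacts with the sodium pump, fell 3.28-fold, and its second probe fell too.

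The remaining genes of this list were named after their values were seen. Krt7, Krt19, Upk1b, the anticoagulant receptor Thbd and the protease inhibitor Slpi were lower, by 4.72-, 3.53-, 4.02-, 2.40- and 2.23-fold. Pkhd1l1 and Tbx18 had log2 changes of -0.57 and -0.67, were well above background on 0 and 1 of the HFD arrays, and missed the threshold (adjusted p = 0.0517 and 0.0523, limma); both passed with quantile normalisation and with median scaling, where 13 genes were called. With normexp, where 11 were called, their log2 changes were -0.04 and -0.21 (adjusted p = 0.825 and 0.197, limma). The other 6 had small changes. They were -0.08 for Aldh1a2, the retinoic acid synthesising enzyme, -0.06 for Pdpn (0.16 with normexp), -0.12 for the lubricant Prg4, -0.17 for the membrane linker Ezr, 0.26 for Krt14 and 0.31 for the claudin Cldn15. Their adjusted p lay between 0.303 and 0.768 (limma). The summed linear signal of the list, relative to the 75th percentile, was 110 on each LFD array and 48.2 and 46.1 on the HFD arrays. Rspo1, Thbd and Slpi, the brightest of the list, made up most of that sum on each array. Of the 19 genes, 8 did not pass.

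Relatives of the markers were examined by family. Of 11 such genes 9 were tested, 2 were lower and none was higher, against 5.6% and 5.73% of all genes. The median log2 change was 0.07, or -0.01 with median scaling. Upk3a, a uroplakin of the bladder lining, fell 23.7-fold (adjusted p = 0.0101, limma), and only 1 of the HFD arrays detected it above background. With normexp its fall was smaller, with a log2 change of -3.16. Several relatives did not pass. Muc1 and Muc4, membrane mucins like Muc16, had log2 changes of 0.51 and 0.70 (adjusted p = 0.0521 and 0.154, limma). The uroplakin-like gene Upk3bl had 0.51 and Bnc2, the relative of Bnc1, had -0.27, or 0.00036 with normexp (adjusted p = 0.105 and 0.391, limma). Muc1, Upk3bl and Bnc2 were each well above background on only 1 HFD array. The mean log2 levels of Muc1, Muc4, Upk3bl and Bnc2 were -3.29, -3.02, -3.45 and -3.35. These lie close to the lowest signal well above background on HFD replicate 2, -3.18, so a fall of these genes could hardly be seen there. Mslnl and Lrrn1 were not well above background on any array.

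Uroplakins and keratins are also made by other epithelia, so markers of those were measured beside the mesothelial ones. Of 12 such genes 7 were tested, and 4 were lower in HFD, against 5.6% of all genes. Besides Upk3a these were Krt20, a keratin of bladder and gut lining (9.89-fold, detected on 1 HFD array), Upk2 (5.70-fold, likewise) and Cdh1, which encodes E-cadherin (at least 2.92-fold on the scale of the processed signals); the last pair was named after the values were seen. Neither HFD array measured Cdh1 well above background, and its bound sets the LFD mean against the mean of the lowest signals well above background on the HFD arrays, log2 -4.38 and -3.18; another background correction can put it lower. Upk1a had a log2 change of -0.25 by its brighter probe (adjusted p = 0.337, limma), which was 0.02 with normexp. Its dimmer probe, detected on 1 HFD array, was lower at -0.90 (adjusted p = 0.0328, limma). The summed signal of the 7 genes was 4.13 and 4.18 in LFD and 0.778 and 0.777 in HFD. Epcam, Elf3, Esrp1 and Foxa1 were not well above background on any array, and Pax8 was so on 1 HFD array. The median of the tested genes was -2.51, or -1.55 with genes dim in HFD at their bound and -0.99 with normexp, where the same 4 genes passed, with log2 changes of -1.98 for Krt20, -1.35 for Upk2 and -0.99 for Cdh1. The part of other epithelia in the falls of Upk3b and of the keratins was not tested.

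**Figure D5:**
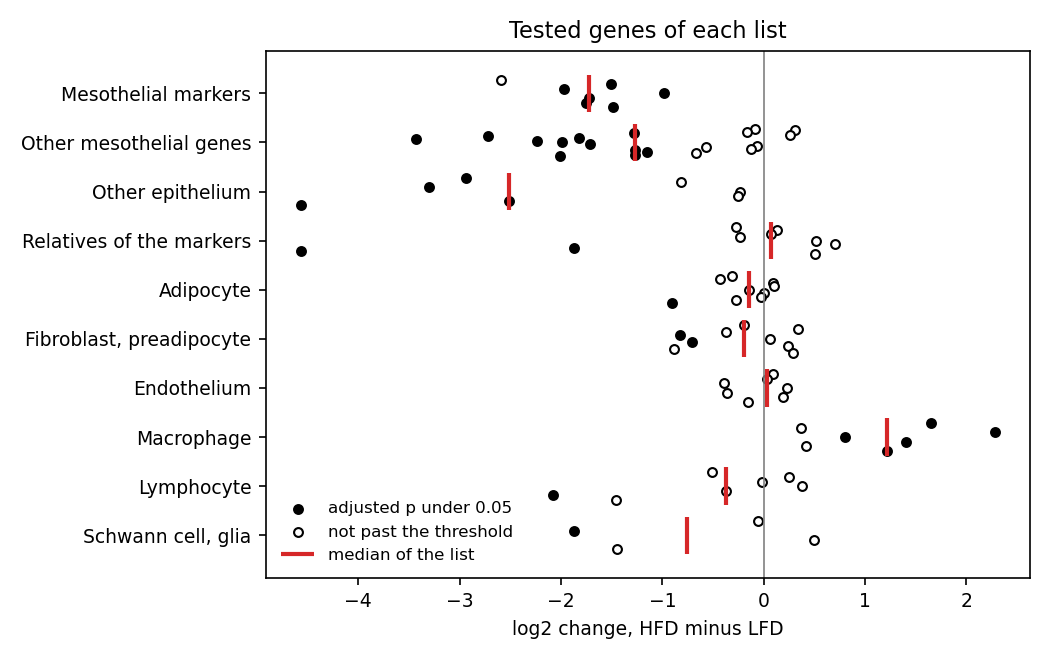
Log2 change, HFD minus LFD (horizontal axis), of each tested gene by list, with filled points for an adjusted p under 0.05 and a red bar at the median. Mesothelial and other epithelial genes lie mostly to the left, with list medians of -1.72, -1.27 and -2.51, and macrophage genes to the right, with a median of 1.21.

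Adipocyte genes had a median log2 change of -0.14, with 1 of 9 lower, against 5.6% of all genes. The bright genes Fabp4, Cidec and Cfd had changes of 0.10, 0.09 and -0.43, none past the threshold, although Cfd passed with normexp at -0.53. The called one, named after its values were seen, was the hormone gene Retn, which fell 1.87-fold. Fibroblast and preadipocyte genes had a median of -0.20, with 2 of 9 lower (5.6% of all genes were), Pdgfra (1.63-fold) and Dpp4 (1.77-fold), which were also named after their values were seen; the matrix genes Dcn and Lum and the surface marker Cd34 had -0.37, 0.06 and -0.20 by their brightest probes, and Lum was at -0.04 with normexp and -0.03 with median scaling. A dimmer Dcn probe, detected on 1 HFD array, was lower at -1.05 (adjusted p = 0.0309, limma). Endothelial genes had a median of 0.03, or -0.03 with quantile normalisation and -0.06 with median scaling, and none of 7 was called in limma, with 2 at an unadjusted p under 0.05; Egfl7, Emcn and Kdr had 0.03, -0.39 and -0.36.

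Macrophage genes moved the other way, with 5 of 7 higher, none lower and a median of 1.21, where 5.73% of all genes were higher. Adgre1, a receptor of mature macrophages, rose 3.13-fold and Csf1r, the receptor for a macrophage growth factor, 1.75-fold by its brightest probe. Of the 3 Csf1r probes 2 were called higher, and the dimmest did not pass (log2 change 0.50, adjusted p = 0.0637, limma). The lysozyme gene Lyz2 had a log2 change of 0.42 by its brighter probe (adjusted p = 0.0817, limma) and rose by its dimmer one (1.32, adjusted p = 0.0211, limma). The summed signal of the list was 176 and 160 in LFD and 249 and 263 in HFD. Most of that sum came from the brighter Lyz2 probe, at log2 7.22 and 7.08 in LFD and 7.51 and 7.63 in HFD. Such a sum weighs each gene by the brightness of its probe and does not give cell shares. The part of the macrophage genes in the lower mesothelial values was not tested. On the same scale the summed adipocyte signal was 1472 and 1585 in LFD and 1366 and 1472 in HFD.

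Some lymphocyte genes differed widely between the LFD arrays. Ms4a1, which encodes CD20 of B cells, read 1.22 and -1.98 in LFD and -2.57 and -1.12 in HFD, and Cd79b of the B cell receptor read 1.60 and -0.87 in LFD and -0.18 and 0.17 in HFD. Of the 7 listed genes only Cxcl13, a chemokine that attracts B cells, was lower past the threshold, at 4.23-fold, where 5.6% of all genes were lower. Cxcl13 read -0.11 and -0.43 in LFD and -2.61 and -2.09 in HFD, without the wide LFD difference of Ms4a1 and Cd79b. By their brightest probes the markers differed by at most 0.23 between the LFD arrays. Of 6 genes of Schwann cells and glia 4 were tested. Of these 1 was lower and none higher, against 5.6% and 5.73% of all genes. Mbp and S100b had log2 changes of -0.06 and 0.50 by their brightest probes and did not pass; S100b was higher past the threshold with normexp. A second Mbp probe was lower, at -0.57 (adjusted p = 0.0409, limma), and the dimmest had 0.36.

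Genes outside these lists with a profile most like that of the markers were sought over the 4 arrays. Likeness was the distance between a gene's log2 values and the mean of the marker genes, both centred on their own mean, among 12526 named genes well above background on all arrays. The nearest was Kcnab1, an auxiliary subunit of potassium channels, at a distance of 0.12, with log2 levels of -0.58 and -0.53 in LFD and -1.86 and -2.45 in HFD. Next came Col4a6, a basement membrane collagen chain (0.17), Crym (0.18), Ccbe1, a gene of lymphatic vessel growth (0.19), Il17re, an interleukin 17 receptor subunit (0.26), and the chloride channel Ano1 (0.33). The markers themselves lay at 0.21 for Upk3b to 0.75 for Msln and 1.44 for Bnc1 from their own mean. The mean profile holds the Bnc1 value of HFD replicate 2 that was not well above background. Without Bnc1, a choice made after seeing the data, replicate 2 minus replicate 1 of the HFD profile was -0.31 in place of -0.58. Crym was then nearest (0.12), 4 of the first 6 genes were shared, Kcnab1 came 10th and Ccbe1 49th. With 4 arrays such likeness is loose, and 216 genes, or 1.72%, correlated with the mean profile at r above 0.99.

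Promoters were set beside these values because all 7 markers were lower on both HFD arrays than on both LFD arrays, as 32.7% of all genes were. Shared regulation was not tested. The RefSeq table of build GRCm38.p6 held 6 promoters for 5 of the markers, each of 250 bases before and 50 after a start site; Msln and Wt1 are not shown. Sequences were searched on both strands for GGAATG, the core bound by TEAD factors, GCGTGGG, a core shared by WT1 and EGR factors, GGGCGG, the Sp1 box, and TATAAA, the TATA box; no matches of different motifs overlapped in these windows. Those of Upk3b (chr5:136038246-136038545, plus strand), Lrrn4 (chr2:132880813-132881112, minus strand) and Muc16 (chr9:18674554-18674853, minus strand) are given, with matches in capitals.
Upk3b: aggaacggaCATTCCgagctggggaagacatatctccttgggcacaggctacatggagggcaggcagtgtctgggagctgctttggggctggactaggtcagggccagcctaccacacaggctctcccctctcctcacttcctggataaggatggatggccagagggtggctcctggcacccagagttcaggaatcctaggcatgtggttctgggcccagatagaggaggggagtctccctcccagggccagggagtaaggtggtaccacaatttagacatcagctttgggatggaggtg
Lrrn4: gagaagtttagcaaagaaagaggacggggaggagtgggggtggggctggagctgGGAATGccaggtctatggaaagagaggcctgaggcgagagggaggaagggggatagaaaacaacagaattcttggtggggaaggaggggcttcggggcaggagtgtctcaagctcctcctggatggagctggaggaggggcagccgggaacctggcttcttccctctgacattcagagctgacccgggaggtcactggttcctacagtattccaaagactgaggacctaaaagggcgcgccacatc
Muc16: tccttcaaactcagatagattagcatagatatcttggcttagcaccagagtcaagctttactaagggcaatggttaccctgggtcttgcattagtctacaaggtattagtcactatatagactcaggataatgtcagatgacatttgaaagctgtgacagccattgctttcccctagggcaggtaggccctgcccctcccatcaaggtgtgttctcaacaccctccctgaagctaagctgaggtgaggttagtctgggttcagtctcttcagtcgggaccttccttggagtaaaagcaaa

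GGAATG, or its reverse complement, stood once in each of the Upk3b and Lrrn4 promoters and in 1 of the 2 Gpm6a promoters, so in 3 of 6, against 14.7% of 32851 promoters of that length. The Muc16 window held none of the 4 motifs. GCGTGGG was in none of the 6 windows and in 5.04% of all promoters. The Bnc1 promoter, with 83.3% G and C against a median of 52.7%, held 6 matches to GGGCGG and a Gpm6a promoter held 1; 35.7% of all promoters hold one. TATAAA was in 1 of the 6, the other Gpm6a promoter, against 13.6%. A match shows only that the letters occur in the window.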

How the data were processed

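White adipose tissue RNA, 500 ng per sample, was labelled and measured on 4 one-colour Agilent arrays, per the labels' protocols that shared a slide and a scan (1 of each), per the file headers. The authors deposited spot intensities that Feature Extraction had background-subtracted and detrended within each array, without scaling between arrays (version 11.0.1.1 per the file headers, 11.5.1.1 per the submitters' processing notes). In the deposited value table each entry is a ratio, the processed signal over its array's 75th percentile: dividing the scanner signals by it gave 1 constant per array, within 6.1e-08. It is linear and uncentred, with column medians of 0.117, 0.127, 0.13 and 0.131.

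Log2 processed signals minus the array's 75th percentile were used, with the spots of a probe averaged and 60 to 115 outlier spots per array left out. No spot was saturated. The fit covered 26058 probes that were well above background on every array of LFD, of HFD or of both, in limma 3.58.1 (lmFit, eBayes, two-sided; data.table version 1.17.8 in R 4.3.3), with 2 residual and 2.24 prior degrees of freedom. Of these, 1415 were higher and 1373 lower, or 1178 and 1868 with median scaling. A gene was counted by its brightest tested probe. Symbols came from the files for the markers. For other genes, transcript accessions in a GRCm38 RefSeq table updated them: 27761 probes had a match, of which 1881 took another symbol, and 13413 were left as the files name them. The number of arrays limits the precision.

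The members and lists were chosen with earlier results of these data known. Named genes were all markers, up to 6 per list of mesothelial genes and relatives (smallest p past the threshold, then largest change), up to 3 of highest signal per other list, and the 6 nearest profiles; others are marked in the text, and 1 gene the rule names is not reported here. The fit was also run on simulated probes with independent errors drawn from its own variance model. That run holds no array effects or background floor, so it does not test the fit under the conditions of these arrays. Alternatives were other background correction, scaling, value table, filters, flagged spots, probe means, eBayes options, a block, a threshold of 0.10 and each array left out. No block for slide could be fitted, since there was 1.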

Additional observations from a re-analysis of the deposited data

How the results depend on the processing

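Of 104 gene and setting pairs, the call of a marker was unchanged in 75. All 104 values were below 0, but settings that change the filter, the variance model, the block or the threshold leave the change itself as it is, and leaving out 1 array cannot turn it. The call was lost in 28 and gained in 1, that of Bnc1 with normexp. The counts of lower markers (6) and of lower mesothelial genes of the wider list (11) moved by over 1.5 times in 6 and 5 of 15 alternatives. With no filter on dim probes none of 7 and none of 19 passed in limma, although 7 and 13 had an unadjusted p under 0.05; over the array 0 probes then passed, with 8107 at an unadjusted p under 0.05, and the adjusted p of the markers was 0.107 to 0.238. With the replicate number as a block 3 markers (Muc16, Wt1 and Lrrn4) and 553 probes passed, with 1 residual degree of freedom fewer; the deviations of arrays with the same number had a correlation of -0.0043, so the numbers gave no sign of pairing. The eBayes trend and robust options gave 4903 probes and a threshold of 0.10 gave 6336, against 2788. Leaving out 1 array gave 0 to 3 markers, 0 to 7 wider mesothelial genes and 19 to 1057 probes, with the lone array of a diet assumed to vary like the other diet. For Bnc1, one dim HFD value sets the size, so its fold is limited by signal over background.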
